A study of Mus musculus with 16 samples.

Results

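Libraries of sorted olfactory mucosa cells from mice kept in clean air were compared between a side rich in S100a5 RNA and a side poor in it. In each of 4 pools of mice the sort gave a pair of libraries; the library with the higher S100a5 level was taken as S100a5-high and the other as S100a5-low. That gave 4 libraries a side, 8 of the 16 libraries in the series. S100a5 was 16.44, 16.35, 16.37 and 16.27 in the S100a5-high libraries of pools 1 to 4, and 14.59, 14.91, 14.99 and 15.47 in the S100a5-low libraries. The sides were selected on these measured values, which are given as a description with no test; the gap within a pool ran from 0.80 in pool 4 to 1.85 in pool 1.

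All mice carried the S100a5-tauGFP reporter on the C57BL/6 strain, were of both sexes and were 7 to 12 weeks old. Each was kept alone in a clean-air chamber for 40 h at an airflow of 3.1 L/min, and from 26 h on received pulses of 10 s every 20 min, of filtered air in the clean-air (vehicle) pools or of isoamyl acetate and whiskey lactone in the odor pools. Mucosa was dissected and dissociated, cells from groups of 3 mice were sorted by GFP, and RNA was measured on Affymetrix arrays, 1 array per library; 24 mice made 8 pools, 4 per treatment. The mice were exposed to clean air or odor at the same time. How the reporter was built and the sort gates were set is not given in the sources used here.

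Each of the 16 samples carries a title that names one GFP fraction and a cell type tag that names the other, so the titles are quoted as "titled GFP+" and "titled GFP-". In pools 1, 2 and 4 the S100a5-high library was the one titled GFP-, and in pool 3 it was the one titled GFP+. Differences over all 4 pools, S100a5-high minus S100a5-low, are therefore a description only. Tests followed the titles in pools 1, 2 and 4 (titled GFP- minus titled GFP+), which leaves out pool 3, a choice made after its values were known. Pool 3 and the 4 odor pools are set beside those tests.

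S100a5 is a small calcium-binding protein that mature olfactory sensory neurons make when they have recently been active, and the reporter is named for that gene. Each such neuron expresses, as a rule, a single odorant or trace amine-associated receptor gene, so receptor transcripts in a sorted sample show which classes of neurons it holds. The mucosa also contains sustentacular cells, Bowman glands, microvillar cells, basal stem cells and blood-derived cells. In these bulk samples, fewer cells of a type and less RNA per cell cannot be told apart.

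Markers of mature olfactory neurons were high on both sides. Omp, the classical marker of these cells, was 18.63 ± 0.04 in the S100a5-high and 18.52 ± 0.07 in the S100a5-low libraries (SD, n = 4 each), and Stoml3, a membrane protein of their cilia, was 19.38 ± 0.01 and 19.38 ± 0, at the top of the range of the table, where a difference between the sides could not be seen. Library medians over all genes were 6.63 to 6.74 on the S100a5-high side and 6.96 to 7.07 on the S100a5-low side. Values are on the deposited log2 scale, which reaches 19.4 and has an unknown step above a scanner's range, so differences are given as such and not as folds.

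Limma, with the pool of mice as a block and Benjamini-Hochberg adjustment over 19505 genes, called 2314 genes at an adjusted p under 0.05 (11.9% of those tested). Of these, 715 were higher (3.67%) and 1599 lower (8.2%) on the S100a5-high side. These shares over all genes are the background for every count of called list members given below. Receptors made up 609 of the calls, other named genes 1659 and unnamed loci 46. The balance of directions rests on the scaling of the arrays: 30.9% of calls were higher as deposited, 48.1% after quantile normalization and 84.1% with the arrays centred on their medians, where the median difference of all genes was 0.46 against 0.10 as deposited. Without clean-air pool 1 the calls numbered 1503, of which 364 were higher, and without pool 2, 427 were higher. With all 16 arrays as titled, pool 3 included, limma called 0 genes (1414 at an unadjusted p under 0.05, smallest adjusted p = 0.656).

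The largest differences were shared out unevenly between kinds of genes. Of 155 called genes higher by more than 2, 153 were receptors and the others were Avp and Fxyd2. Of 715 called genes lower by more than 2, 182 were receptors and 533 were not. Differences beyond 4 were called for 15 genes on the higher and 234 on the lower side.

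Pool 3 was left out of the main test and was turned by S100a5 alone. The turn sets the sign of all its differences together, so agreement with the other pools is a description and not a test. Of the 2314 called genes, 2179 (94.2%) had the same sign there, against 65.5% of all genes. Turned this way, every S100a5-high library stood above every S100a5-low library for 1382 genes (7.09%) and below for 1870 (9.59%); by its titles these counts were 439 and 134. Across genes, which are not independent replicates, the difference in pool 3 correlated with the mean of the other pools at r = 0.84, and across the 1095 receptors at r = 0.95. The 135 called genes that ran the other way in pool 3 had a median absolute difference of 0.80 in the tested pools, against 1.59 for all calls. Of these 135 genes, 11 were receptors, which are not named here. Receptors and unnamed loci aside, Klhl35, a kelch-family gene, had the largest opposite difference in pool 3. It was 0.91 ± 0.17 in the tested pools (SE, limma adjusted p = 0.0066, and 0.0589 without pool 1) and -0.97 in pool 3. Il1a, an interleukin 1 gene, was -0.97 against 0.88, and Tmprss11f, a transmembrane protease gene, 0.72 against -0.87; both lost the call without pool 1 and without pool 4 (largest limma adjusted p over pools left out 0.23 and 0.192). Every Tmprss11f value, from 2.59 to 4.08, lay below the median of the negative control probe sets (5.46).

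**Figure D1:**
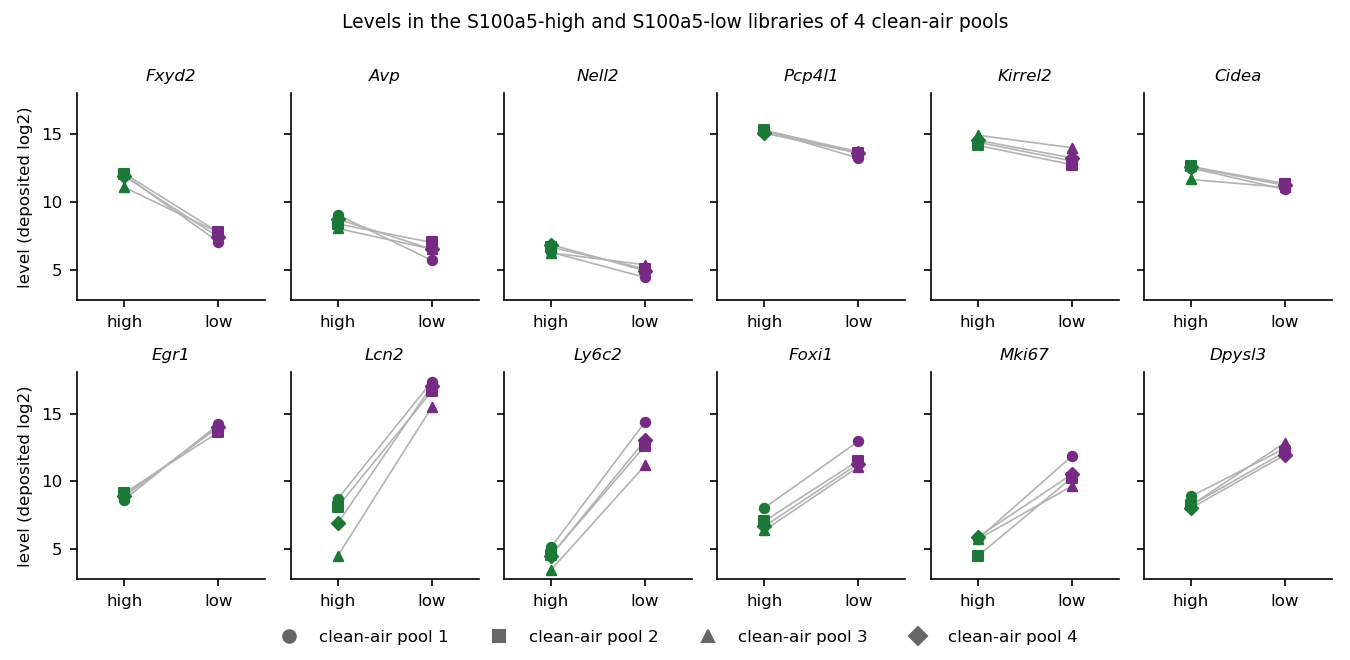
Levels (vertical axis, deposited log2 scale) of 12 genes in the S100a5-high (green) and S100a5-low (purple) libraries; grey lines join the pair of a pool and the marker shape names the pool. Fxyd2 lies between 11.09 and 12.11 on the high side and between 7.06 and 7.77 on the low side, and Lcn2 between 4.47 and 8.68 against 15.45 to 17.35.

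Odorant and trace amine-associated receptors were called in both directions. Of the 1095 receptor genes, 348 were called higher and 261 lower on the S100a5-high side, against 3.67% and 8.2% of all genes. The receptors called lower had a median difference of -3.02, from a median level of 10.24 in the S100a5-low libraries to 6.39 in the S100a5-high ones. Those called higher had a median difference of 1.91, from 8.26 to 10.35. Differences beyond 4 were found for 93 receptors on the lower and 14 on the higher side, differences of 2 to 4 for 89 and 139, and of 1 to 2 for 67 and 168. Another 486 receptors were not called; 416 of them differed by less than 1, and 99 had a mean level below the median of the negative control probe sets.

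Olfr613 had the largest fitted difference of the receptors on the S100a5-high side. It stood at 11.10, 10.53, 10.42 and 10.81 in the S100a5-high libraries of pools 1 to 4 and at 5.11, 4.55, 4.54 and 4.95 in the S100a5-low ones, with no overlap and a difference of 5.94 ± 0.18 (SE; limma adjusted p = 1.04e-07). All 4 S100a5-low values lay below the negative control median of 5.46, so its size is limited by background and its rank among receptors is not read. Olfr110 stood at 12.97, 13.43, 11.75 and 12.54 against 7.39, 7.74, 7.55 and 6.89 (5.64 ± 0.21, SE; adjusted p = 3.74e-07). Olfr309 stood at 15.41, 15.84, 15.25 and 15.33 against 8.91, 10.35, 9.76 and 10.77 (5.52 ± 0.30, SE; adjusted p = 3.41e-06). In each of these receptors the sides did not overlap and pool 3, as turned by S100a5, ran with the others. The next were Olfr536 (5.35), Olfr533 (5.29), Olfr481 (5.21), Olfr1093 (5.18) and Olfr211 (4.79), with limma adjusted p from 4.26e-07 to 1.05e-05; Olfr481 and Olfr1093 also lay below that median in 3 of 4 S100a5-low libraries.

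Olfr1213 had the largest fitted difference in the other direction. It stood at 8.19, 5.36, 5.71 and 4.12 in the S100a5-high libraries and at 13.00, 14.87, 13.38 and 14.57 in the S100a5-low ones, a difference of -8.26 ± 0.86 (SE; limma adjusted p = 0.000146). Olfr677 stood at 4.48, 4.63, 4.27 and 4.79, all below the negative control median, against 12.02, 12.74, 13.21 and 12.49 (-7.79 ± 0.18, SE; adjusted p = 4.07e-08). Olfr1507 stood at 7.43, 6.02, 5.02 and 7.59 against 14.17, 14.96, 13.78 and 15.31 (-7.80 ± 0.67, SE; adjusted p = 4.4e-05). The sides did not overlap for any of these receptors. Values below the negative control median, as in some S100a5-high libraries of Olfr1213, Olfr1507, Olfr794 and Olfr460, limit the size of a difference, here and for the leukocyte genes described further on. Olfr1297 (-7.67), Olfr393 (-7.63), Olfr794 (-7.43), Olfr1447 (-7.39) and Olfr460 (-7.37) followed, with limma adjusted p from 7.07e-08 to 8.28e-06. The smallest p of any odorant receptor, shared with Olfr677, belonged to Olfr390 (-6.97 ± 0.17, SE; adjusted p = 4.07e-08).

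**Figure D2:**
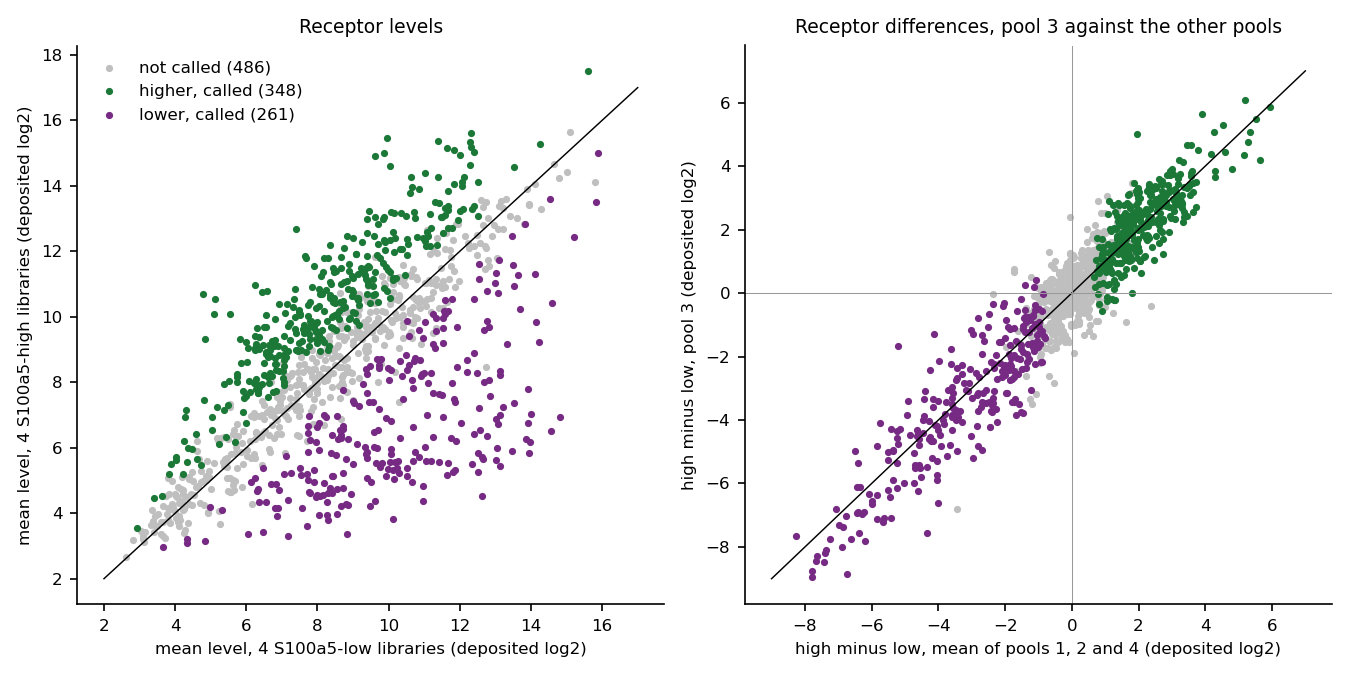
Left, mean level of each of 1095 receptor genes over 4 S100a5-low libraries (horizontal) and 4 S100a5-high libraries (vertical), deposited log2 scale, coloured by the call; the line marks equal levels. Right, the same genes' high minus low difference as a mean of pools 1, 2 and 4 (horizontal) and in pool 3 (vertical), where the line marks equal differences; the points follow the line (r = 0.95).

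Between any pair of pools r across receptors was 0.91 to 0.92, against 0.76 to 0.84 across all genes. In all 4 pools the sign was the same for 767 receptors, positive for 444 and negative for 323. Every S100a5-high library stood above every S100a5-low one for 355 receptors and below for 267, where the shares over all genes were 7.09% and 9.59%. Of the 609 called receptors, 598 had the same sign in pool 3. Among adjacent pairs of called receptors, 204 of 313 (65.2%) shared a direction, where 50.9% of all pairs of called receptors did; this is a description. Close relatives often lie side by side and probes may read more than 1 of them, which was not tested.

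Trace amine-associated receptors, a small family found in other neurons of the same epithelium, were also divided. Of 15 measured, 5 were called higher and 5 lower. Taar9 stood at 12.40, 13.46, 13.05 and 13.90 in the S100a5-high libraries and at 9.55, 11.33, 11.05 and 10.94 in the S100a5-low ones (2.65 ± 0.29, SE; limma adjusted p = 0.000196). Taar4 (1.99), Taar8a (1.60), Taar5 (1.21) and Taar7e (1.15) were called in the same direction. Taar2 stood at 6.13, 4.27, 4.68 and 7.20 against 9.35, 10.20, 10.40 and 10.18 (-4.05 ± 0.50, SE; adjusted p = 0.000411), and Taar6 (-2.41), Taar7a (-1.97), Taar7f (-1.75) and Taar8b (-0.94) were also called lower. The Taar7 and Taar8 genes are close copies of each other, so their probe sets may share signal. Vomeronasal receptors had list means of 3.68 to 4.12 on either side, below the negative control median of 5.46: 4 of 201 type 1 and 1 of 120 type 2 genes were called, all higher, and each of these 5 calls was lost without at least 1 clean-air pool (largest adjusted p = 0.241, for Vmn2r45).

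Outside the receptors, Fxyd2 and Avp differed most on the S100a5-high side. Fxyd2, a regulator of the sodium pump, stood at 12.01, 12.11, 11.09 and 11.92 in pools 1 to 4 against 7.06, 7.77, 7.76 and 7.42, a difference of 4.60 ± 0.28 (SE; limma adjusted p = 5.03e-06). Avp, the vasopressin precursor, stood at 9.06, 8.39, 8.05 and 8.75 against 5.70, 7.02, 6.53 and 6.52 (2.32 ± 0.31, SE; adjusted p = 0.000631). Both genes were higher in 4 of 4 pools with no overlap between the sides. Nell2, a secreted glycoprotein of neurons, was higher by 1.79 ± 0.26 (SE; its S100a5-low values lay below the negative control median), Cntnap5b, a contactin-associated protein, by 1.78, Galnt15, an enzyme of O-linked glycosylation, by 1.58 and Ache, acetylcholinesterase, by 1.55 (limma adjusted p from 0.000342 to 0.00224). Ache differed by only 0.28 in pool 3. All S100a5-low values of Cntnap5b (4.17 to 4.85) and Ache (3.93 to 4.49) also lay below the negative control median. Olfr911-ps1, a receptor pseudogene, was higher by 1.94 (adjusted p = 0.00221), with overlapping sides, and Akap3, an anchor protein for protein kinase A, by 1.52 (adjusted p = 0.043), a call lost without any 1 of the tested pools (adjusted p up to 0.214). Akap3 lay below the negative control median of 5.46 in every S100a5-low library, and at 5.54, 5.31, 5.04 and 4.89 in the S100a5-high ones.

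Genes known to be raised by activity in olfactory neurons were higher on the S100a5-high side: 4 of 4 listed were called, with a median of 1.67 against 0.10 for all genes. Kirrel2, a homophilic adhesion molecule whose level follows activity, stood at 14.42, 14.19, 14.94 and 14.56 against 13.04, 12.77, 14.02 and 13.27 (1.36 ± 0.14, SE; limma adjusted p = 0.000142). Pcp4l1, a relative of a calmodulin-binding peptide, was nearly level within each side, at 15.29, 15.30, 15.29 and 15.09 against 13.25, 13.61, 13.72 and 13.62 (1.73 ± 0.20, SE; adjusted p = 0.000297). Lrrc3b, a leucine-rich repeat membrane protein, was higher by 1.68, and Ptprn, a protein of dense-core vesicles, by 1.66 (adjusted p = 0.000197 and 0.00212). The list was chosen with such results of these data known, so its count does not stand as independent evidence.

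Molecules that sort the axons of olfactory neurons by activity followed in part. Of 5 listed, 3 were called higher: Kirrel2, the adhesion molecule Pcdh10 (1.16 ± 0.19, SE; limma adjusted p = 0.00256) and the ephrin receptor Epha5 (0.95 ± 0.18, SE; adjusted p = 0.00528). Kirrel3, which is known to be complementary to Kirrel2 among olfactory axons, differed by -0.37 ± 0.20 and Efna5 by -0.10 ± 0.20 (SE; adjusted p = 0.308 and 0.814). For Kirrel3 the 4 S100a5-high libraries lay below all 4 S100a5-low libraries. Of 12 further axon guidance genes 0 were called higher and 1 lower, Sema3a, a repellent ligand (-0.92, limma adjusted p = 0.0432, and up to 0.241 without 1 clean-air pool). With the arrays centred on their medians 5 of the 12 were called higher. Every S100a5-high library stood above every S100a5-low one for 2 of them, Plxna3 (0.60) and Slit1 (0.44), and below for 2. Plxna3 and Slit1 were called higher in the odor pools (limma adjusted p = 0.0397 and 0.045), where 1 of the 12 was called lower. Limma called 0 of 3 markers of the epithelium's zones (0 at an unadjusted p under 0.05; 3 were called higher with the arrays centred on their medians), and Ncam2, an adhesion molecule of ventral zones, differed by 0.19 ± 0.16 (SE; adjusted p = 0.525).

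Peptide and vesicle genes were called in the same direction. Of 14 dense-core vesicle and peptide genes 6 were called higher and 0 lower, with a median of 0.51. Caly, a vesicle protein, stood at 9.53, 9.43, 8.62 and 9.02 against 7.49, 7.65, 6.70 and 7.81 (1.68 ± 0.18, SE; limma adjusted p = 0.000193), and Chgb, a granin, was higher by 1.19, Pcsk1, a prohormone convertase, by 0.90 and Scg3, another granin, by 0.57 (adjusted p from 0.00184 to 0.0384); Scg3 differed by -0.15 in pool 3. Of 11 synaptic vesicle genes 2 were called higher: Syt4, a synaptotagmin (1.16 ± 0.16, SE; adjusted p = 0.00101), and Sv2b (0.53; adjusted p = 0.046, and up to 0.182 without 1 clean-air pool). Kcnn2, a calcium-activated potassium channel, stood at 13.15, 13.40, 12.98 and 13.36 against 11.90, 12.41, 12.06 and 12.39 (1.07 ± 0.16, SE; adjusted p = 0.00163). Of 90 potassium channel genes 5 were called higher and 6 lower, against 3.67% and 8.2% of all genes. These counts are near those shares and are not read as a result about the group.

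Most genes listed for the signal cascade of the cilia, 11 of 14, were not called. Calls were 2 higher and 1 lower, against 3.67% and 8.2% of all genes. For 4 of the 14 every S100a5-high library stood above every S100a5-low one, against 7.09% of all genes. Of 14 transduction genes 2 were called higher, Pde1c, a calmodulin-dependent phosphodiesterase of the cilia (0.75 ± 0.14, SE; limma adjusted p = 0.00607), and Ano2, the calcium-activated chloride channel (0.52 ± 0.14, SE; adjusted p = 0.0439, and up to 0.205 without 1 clean-air pool). Slc8b1, a mitochondrial sodium-calcium exchanger, was called lower (-1.88; adjusted p = 0.000273). Adcy3, the adenylyl cyclase, was higher in 4 of 4 pools by 0.21 to 0.27 with no overlap between the sides, and its fitted difference of 0.24 ± 0.14 (SE) missed the threshold (adjusted p = 0.339). Cnga2, the channel subunit opened by cyclic AMP, differed by 0.26 ± 0.16 (SE; adjusted p = 0.363). Of 8 markers of mature neurons 1 was called, Cidea, which stood at 12.52, 12.63, 11.67 and 12.58 against 10.93, 11.36, 11.08 and 11.24 (1.40 ± 0.17, SE; adjusted p = 0.000426). With the arrays centred on their medians 6 of these 8 markers and 9 of the 14 transduction genes were called higher.

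Receptor choice and the unfolded protein response, which link receptor expression to neuron maturation, showed 1 call among 13 genes. Lbr, a lamin receptor of the nuclear envelope that is low in mature olfactory neurons, stood at 10.18, 10.24, 9.41 and 10.25 against 12.26, 11.26, 10.76 and 10.81 (-1.22 ± 0.31, SE; limma adjusted p = 0.0323, and 0.219 without pool 1). Atf5, a translation-controlled factor of receptor choice, differed by 0.09 ± 0.15 and Rtp1, a receptor chaperone, by 0.10 ± 0.16 (SE; adjusted p = 0.766 and 0.743).

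Immediate early genes, the transcription factors and feedback regulators that cells switch on within minutes of a stimulus, were lower on the S100a5-high side. Of 34 measured, 20 were called lower and 0 higher, with a median of -1.34. Egr2 stood at 6.65, 6.92, 7.23 and 7.19 in the S100a5-high libraries of pools 1 to 4 and at 12.88, 13.02, 13.42 and 13.13 in the S100a5-low ones (-6.09 ± 0.33, SE; limma adjusted p = 3.38e-06). Egr1 stood at 8.64, 9.12, 8.91 and 8.88 against 14.20, 13.63, 14.02 and 13.99 (-5.06 ± 0.28, SE; adjusted p = 3.43e-06). Btg2, an antiproliferative gene, stood at 7.58, 7.81, 6.96 and 7.61 against 12.81, 12.34, 11.51 and 12.25 (-4.80 ± 0.25, SE; adjusted p = 2.48e-06). For each of these genes the sides were more than 4 apart in every pool, pool 3 included.

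The AP-1 and Nr4a families ran the same way for most members. Fosb (-4.68), Fos (-4.38), Junb (-3.77), Nr4a2 (-4.19), Nr4a3 (-3.61) and Nr4a1 (-3.42) were called lower, as was Zfp36, which destabilizes short-lived messages (-4.54; limma adjusted p from 7.2e-06 to 4.74e-05 over these 7 genes). Atf3, a stress-induced factor, was lower by a smaller amount (-1.12 ± 0.19, SE; adjusted p = 0.00282). Arc and Npas4, which mark activity in forebrain neurons, differed by -0.41 and 0.07 and were not called. Jun (-0.61), Ier2 (-0.30), Egr3 (-0.15) and Egr4 (0.01) were not called either. Mean levels of Arc, Npas4 and Egr4 lay below the negative control median of 5.46 on both sides, so their lack of a call is not read. Heat shock genes, which also respond to cell handling, gave 0 calls among 7 in limma, against 11.9% of all genes (2 at an unadjusted p under 0.05, 1 call after quantile normalization). Hspb1 was nearest (-0.75 ± 0.22, SE; adjusted p = 0.0562), with mean levels below the negative control median on both sides. In the odor pools 2 of the 7 were called lower. The part of cell handling in the immediate early difference was not tested. Leukocyte genes, described below, moved with the same side: the mean level of 7 pan-leukocyte genes was 5.47 to 6.43 in the S100a5-high and 9.82 to 11.90 in the S100a5-low libraries. Their part in the immediate early difference was not tested.

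**Figure D3:**
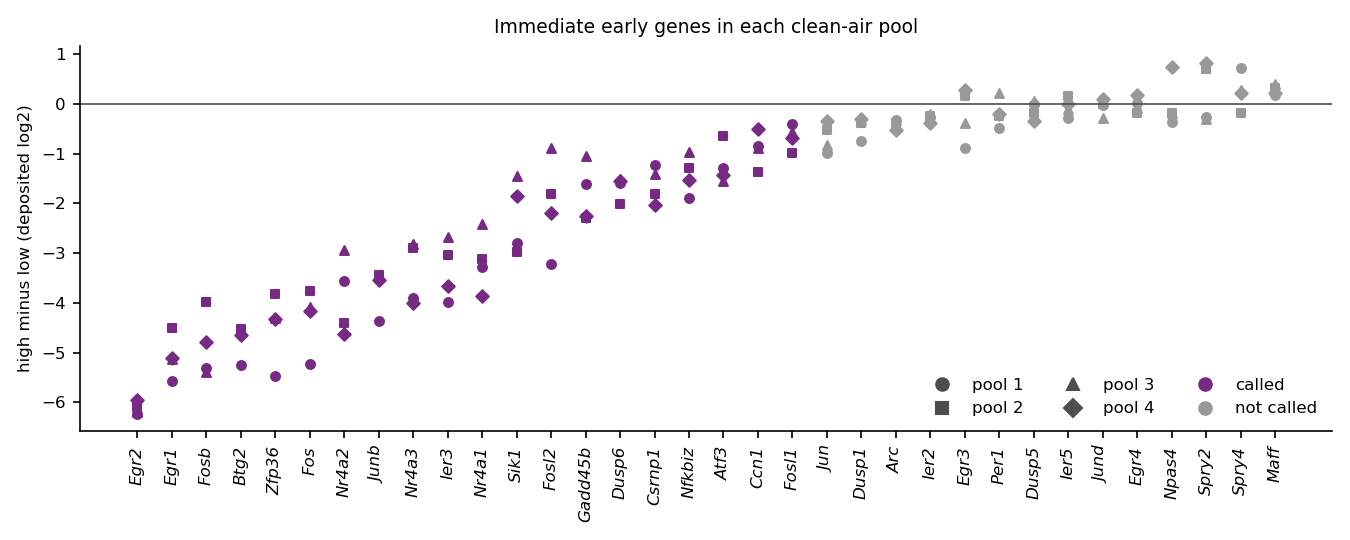
High minus low difference (vertical axis, deposited log2 scale) of each of 34 immediate early genes in clean-air pools 1 to 4, ordered by the mean of 4 pools; purple marks the 20 called genes. The called genes lie below 0 in every pool, from Egr2 near -6 to Fosl1, whose pools run from -0.40 to -0.98.

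Promoters of the called immediate early genes are shown because these genes differed together and are known targets of cyclic AMP and serum signalling. RefSeq promoters of assembly GRCm38.p6 were available for 16 of the 20 called genes, taken as the 250 bases before the annotated start. The motif TGACG, the core of the cyclic AMP response element, was searched on both strands, a choice made after these promoters had been looked at; its palindromic form TGACGTCA contains it on each strand. TGACG was present for 11 of 16 called genes (68.8%), for 6 of 10 uncalled members with a promoter (60%), for 19.8% of all 27025 genes in the table, and in 17.8% of all 32851 promoters. The palindrome was found for 1 of the 16 called genes, Btg2 (6.25%), for 2 of the 10 uncalled members (20%) and for 1.77% of all genes, or 1.55% of all promoters. The serum response CArG box was found for 2 of the 16, Egr2 and Zfp36 (12.5%), for 1 of the 10 uncalled members (10%) and for 1.62% of all genes, or 1.47% of all promoters. A match is a description of these letters and not a site shown to be bound. Matches to TGACG or its reverse CGTCA are in capitals below, in Btg2 (chr1:134079156-134079405, minus strand), Fos (chr12:85473640-85473889, plus strand), Fosb (chr7:19310046-19310295, minus strand) and Nr4a1 (chr15:101266596-101266845, plus strand), each written 5′ to 3′ toward its start.
Btg2: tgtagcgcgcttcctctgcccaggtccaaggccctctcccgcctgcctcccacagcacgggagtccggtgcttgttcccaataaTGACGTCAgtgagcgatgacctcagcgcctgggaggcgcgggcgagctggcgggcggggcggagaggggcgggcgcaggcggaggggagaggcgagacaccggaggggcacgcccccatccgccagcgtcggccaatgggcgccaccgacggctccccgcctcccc
Fos: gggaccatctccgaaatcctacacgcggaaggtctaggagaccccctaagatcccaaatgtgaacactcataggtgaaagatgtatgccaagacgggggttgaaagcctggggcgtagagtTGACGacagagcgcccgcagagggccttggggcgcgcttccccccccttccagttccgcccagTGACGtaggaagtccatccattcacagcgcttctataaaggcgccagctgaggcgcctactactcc
Fosb: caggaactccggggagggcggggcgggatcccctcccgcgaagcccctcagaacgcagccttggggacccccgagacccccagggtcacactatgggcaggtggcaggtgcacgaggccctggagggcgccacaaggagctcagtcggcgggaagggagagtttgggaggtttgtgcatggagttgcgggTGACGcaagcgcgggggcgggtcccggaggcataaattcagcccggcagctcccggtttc
Nr4a1: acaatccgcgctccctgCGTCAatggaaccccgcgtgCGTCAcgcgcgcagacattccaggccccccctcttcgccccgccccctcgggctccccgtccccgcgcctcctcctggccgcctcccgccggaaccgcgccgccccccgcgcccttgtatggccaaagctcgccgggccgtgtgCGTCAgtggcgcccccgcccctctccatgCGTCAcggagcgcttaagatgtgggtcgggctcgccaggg
Btg2 holds the full palindrome, Fos a pair of separate cores, Fosb a single core and Nr4a1 4 cores, all 4 on the reverse strand. Among called genes that were not receptors, TGACG was found for 68 of 285 higher ones with a promoter (23.9%) and 229 of 1093 lower ones (21%). Pcp4l1 had no TGACG in this window.

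Neutrophil genes were higher on the S100a5-low side throughout, and Lcn2 had the largest difference of any called gene. Of 16 listed, 16 were called lower, with a median of -7.52, and for each the sides did not overlap over 4 pools. Lcn2, an iron-scavenging granule protein, stood at 8.68, 8.11, 4.47 and 6.88 in the S100a5-high libraries and at 17.35, 16.64, 15.45 and 17.02 in the S100a5-low ones (-9.11 ± 0.54, SE; limma adjusted p = 4.53e-06). Ngp, another granule protein, stood at 9.89, 9.17, 4.40 and 7.25 against 17.96, 17.20, 15.77 and 17.17 (-8.68 ± 0.44, SE; adjusted p = 2.26e-06). S100a8, a subunit of calprotectin, stood at 7.39, 7.02, 3.31 and 5.29 against 15.29, 14.74, 11.96 and 14.70 (-8.34 ± 0.41, SE; adjusted p = 1.9e-06). In all 3 genes pool 3 was the lowest library on each side. Its list median was -5.89, the smallest of the 4 pools, while Lcn2 (-10.98), Ngp (-11.38) and Chil3 (-9.79) had their largest difference there. Retnlg (-8.69), Chil3 (-8.19), S100a9 (-7.91), Mmp8 (-7.82), Mmp9 (-7.72) and Ltf (-7.32) followed.

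Monocyte genes split into called and uncalled members. Ly6c2, a surface protein of inflammatory monocytes, stood at 5.12, 4.54, 3.44 and 4.51 against 14.37, 12.62, 11.17 and 13.02 (-8.61 ± 0.33, SE; limma adjusted p = 4.26e-07), and Ccr2, the receptor that calls these cells from the marrow, differed by -5.79 ± 0.26 (SE; adjusted p = 1.15e-06). Itgam (-6.03), Fcer1g (-5.25), Lyz2 (-5.11), Tyrobp (-3.58), Ctss (-1.94) and Csf1r (-1.52) were also among the 8 of 15 called lower. Markers of resident macrophages were not called: C1qa, C1qb and C1qc differed by 0.16, -0.12 and 0.32, and Mrc1 by -0.12. Mrc1 differed by -1.83 in pool 3. The other uncalled members ran lower: Cx3cr1 (-0.81), Adgre1 (-0.45) and Aif1 (-0.45), the last with mean levels below the negative control median. In the odor pools Cx3cr1 (-1.08) and Aif1 (-1.26) were called lower (limma adjusted p = 0.0212 and 0.013). Ly6c1 (-8.39), Fn1, fibronectin (-7.77), and Hp, haptoglobin (-7.72), which belong to no list here, were among the 12 genes that differed most on this side, receptors aside.

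Pan-leukocyte and some lymphocyte genes were called lower as well. Ptprc, the pan-leukocyte CD45, stood at 6.55, 6.06, 5.42 and 6.06 against 11.90, 10.92, 9.54 and 10.36 (-4.84 ± 0.34, SE; limma adjusted p = 1.11e-05), and 7 of 7 pan-leukocyte genes were called lower. Of 9 T and NK cell genes 4 were called lower, led by Cd3e (-2.07 ± 0.38, SE) and Il2rb (-1.99); Nkg7 (-1.28) lost the call without pool 1 or pool 2 (adjusted p up to 0.253). Of 7 B cell genes 3 were called lower, Cd79a (-2.35), Cd79b (-2.09) and Blnk (-1.36), and each lost the call without pool 1 (adjusted p = 0.122, 0.136 and 0.147). Most of these lymphocyte genes lay below the negative control median of 5.46 on the S100a5-high side. Mean levels of Il2rb (5.27) and Cd3g (3.80), which was also called, lay below it on the S100a5-low side too. Of 17 chemokine and chemokine receptor genes 10 were called lower, with Ccl9 (-5.39), Cxcr4 (-4.20) and Ccr1 (-3.55) among them. Of 4 red blood cell genes 3 were called lower, led by Slc4a1, the anion exchanger (-3.44 ± 0.40, SE; adjusted p = 0.000267).

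Antigen presentation genes were lower on the S100a5-high side in both classes. B2m, the class I light chain, stood at 11.31, 11.81, 11.17 and 11.24 against 15.36, 14.85, 14.50 and 15.05 (-3.63 ± 0.31, SE; limma adjusted p = 3.98e-05), and 6 of 8 class I genes were called, H2-D1 (-3.61) and H2-K1 (-3.30) among them. H2-Aa, a class II chain, stood at 6.82, 6.33, 5.94 and 6.39 against 11.10, 11.20, 11 and 10.91 (-4.55 ± 0.23, SE; adjusted p = 2.27e-06). H2-Ab1 (-3.87), H2-Eb1 (-3.19) and H2-DMa (-1.05) were the other class II calls, of 6; H2-DMa lost the call without pool 1 or 4 (adjusted p up to 0.198). In pool 3 the class II list had a median of -1.48 and the class I list of -0.65, the smallest of the 4 pools for each. Members were divided there: H2-Aa (-5.06) and H2-Ab1 (-4.89) had their largest difference in pool 3, and H2-Eb1 (-2.32), H2-D1 (-2.60), H2-K1 (-2.39) and Psmb8 (-1.06) their smallest.

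Microvillar and ionocyte-like cells, rare non-neuronal cells of the surface, had all 11 listed genes called lower. Foxi1, the ionocyte factor, stood at 8.03, 7.05, 6.37 and 6.66 against 12.95, 11.53, 11.06 and 11.29 (-4.68 ± 0.32, SE; limma adjusted p = 9.1e-06). Alox5, 5-lipoxygenase, differed by -4.50, Cftr, a chloride channel, by -3.62, and Ascl3, an ionocyte factor, by -3.42. Trpm5, a cation channel of tuft-like cells, stood at 5.54, 5.85, 5.23 and 5.55 against 8.55, 8.0, 8.62 and 7.69 (-2.43 ± 0.21, SE; adjusted p = 4.86e-05), and Pou2f3, the tuft cell factor, differed by -2.05. The median of the list was -2.18 in the tested pools and -3.12 in pool 3, where Alox5 had its smallest difference (-3.72); differences between pools were not tested.

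Most sustentacular and gland genes ran lower on the S100a5-high side. In the tested pools 9 of 10 and 5 of 6 had a negative difference, against 7085 of all 19505 genes. Of 10 sustentacular genes 6 were called lower: Krt18 (-3.56 ± 0.23, SE; limma adjusted p = 6.58e-06) and Krt8 (-2.59), keratins of simple epithelia, stood with the detoxifying enzymes Cyp1a2 (-1.82), Cyp2a5 (-1.57) and Cyp2g1 (-1.12) and with Notch2 (-2.07). Sec14l3 (0.30), Cbr2 (-0.25) and Hes1 (-0.27) were among those not called. In the odor pools 8 of the 10 were called lower, against 8.77% of all genes. Of 6 Bowman gland genes 4 were called lower. Sox9, the gland and duct factor, stood at 5.77, 4.79, 5.74 and 5.79 against 10.47, 9.12, 10.51 and 9.34 (-4.20 ± 0.26, SE; adjusted p = 6.08e-06). Ltf is also a neutrophil gene, Bpifa1 (-1.83) lost the call without pool 4 (adjusted p = 0.0708) and Aqp5 (-1.03) without pool 1 or 4 (adjusted p up to 0.171).

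Markers of dividing cells were lower on the S100a5-high side. Of 31 cell cycle genes 26 were called lower and 0 higher, with a median of -1.91. Mki67, a marker of dividing cells, stood at 5.71, 4.46, 5.70 and 5.87 against 11.84, 10.25, 9.63 and 10.50 (-5.52 ± 0.42, SE; limma adjusted p = 1.98e-05), Ube2c, which drives mitotic exit, differed by -5.22 and Bub1, a checkpoint kinase, by -3.41. Bub1 stood much closer together in pool 3 (-1.19). Of 57 clustered histone genes 26 were called lower and 0 higher, with the smallest p for H1f5 (-1.67 ± 0.22, SE; adjusted p = 0.000609) and H3c14 (-1.37 ± 0.19), while H2ac10 differed more (-2.01); H3c15 had the same values as H3c14 in every library and cannot be told apart from it. These genes mark division in any cell type, and the part of leukocytes, whose markers moved with the same side, was not tested.

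Of 8 globose basal and neurogenic genes 6 were called lower. Sox11, a factor of new neurons, stood at 7.93, 8.34, 8.04 and 7.81 against 11.21, 11.28, 11.85 and 10.95 (-3.12 ± 0.23, SE, limma adjusted p = 1.74e-05). Kit (-3.12), Insm1 (-1.54), Neurog1 (-1.41), Sox2 (-1.35) and Hes6 (-0.75) were called with it. Mean levels of Neurog1 (3.58 and 5.18) lay below the negative control median of 5.46 on both sides. Limma called 0 of 6 genes of horizontal basal cells, the reserve stem cells (2 at an unadjusted p under 0.05; 2 were called higher with centred arrays), and these lay at 4.43 to 4.65 as a list mean on either side. These means lay below the negative control median of 5.46, which limits what the lack of calls can show. Immature neurons gave 5 calls of 13, all lower. Gng8, the G protein subunit of immature olfactory neurons, stood at 5.60, 6.29, 5.75 and 5.55 against 10.12, 10.44, 11.08 and 11 (-4.71 ± 0.30, SE; adjusted p = 6.58e-06). Dpysl3 (-3.81 ± 0.22, SE), Cxcr4, which the chemokine list also holds, Gap43, the growth cone protein (-1.96), and Stmn1 (-1.80) were the other calls. Tubb3 (0.14) and Dcx (0.17), markers of young neurons elsewhere, were not called.

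Among calcium-binding proteins Calb2, calretinin, had the smallest p. It was 12.21, 12.10, 11.78 and 11.74 in the S100a5-high libraries and 16.08, 16.22, 16.53 and 16.20 in the S100a5-low ones (-4.15 ± 0.19, SE; limma adjusted p = 1.3e-06). The S100 relatives S100a11, which differed more than Calb2 (-6.32 ± 0.40, SE), S100a6 (-2.01), S100a10 (-1.99) and S100a4 (-0.98) were called lower too, against the direction of S100a5; S100a6 differed by 0 in pool 3, to 2 decimals. S100a1 (-0.25) and S100b (0.38) were not called. Of 18 genes in this list 5 were called lower and 1 higher, Pcp4l1.

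Necklace neurons, which use guanylyl cyclase D instead of the usual cascade, had 5 of 10 genes called lower. Pde2a, their phosphodiesterase, stood at 6.39, 6.28, 7.03 and 6.55 against 9.91, 9.73, 9.24 and 9.24 (-3.22 ± 0.24, SE; limma adjusted p = 1.76e-05). The other 4 calls were the Ms4a genes Ms4a4c (-3.45), Ms4a4b (-2.61), Ms4a6c (-2.52) and Ms4a6b (-1.57), which leukocytes also express. Gucy2d, the cyclase that defines these neurons, differed by -0.05, and its levels of 3.10 ± 0.22 and 3.17 ± 0.24 (SD, n = 4 each) lay below the negative control median of 5.46. Of 6 ciliated cell genes 3 were called higher, Ccdc113 (1.06), Tekt1 (0.77) and Rsph1 (0.72), with limma adjusted p from 0.0236 to 0.0355, and each lost the call without pool 1 (adjusted p up to 0.228).

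Several cell types and housekeeping groups gave few calls or none. Limma called 0 of 6 endothelial genes (0 at an unadjusted p under 0.05) and 0 of 5 fibroblast genes (1 at an unadjusted p under 0.05), with 1 of each called higher when the arrays were centred. Endothelial list means were 3.83 to 4.20, below the negative control median of 5.46, and fibroblast list means were 5.07 to 5.62. Signal this low limits what a lack of calls can show. Sox10 (-1.28 ± 0.26, SE; adjusted p = 0.00965, and 0.0863 without pool 1) was the 1 call among 6 genes of ensheathing glia. Of 66 ribosomal protein genes 1 was called, Rps28 (-0.77; adjusted p = 0.0413, and 0.183 without pool 4). Of 89 oxidative phosphorylation genes 3 were called higher and 1 lower; with centred arrays 48 were called higher, so no direction is read for this group. Of 20 clustered protocadherin genes 2 were called higher, against 3.67% of all genes, and each call was lost without any 1 of the tested pools.

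**Figure D4:**
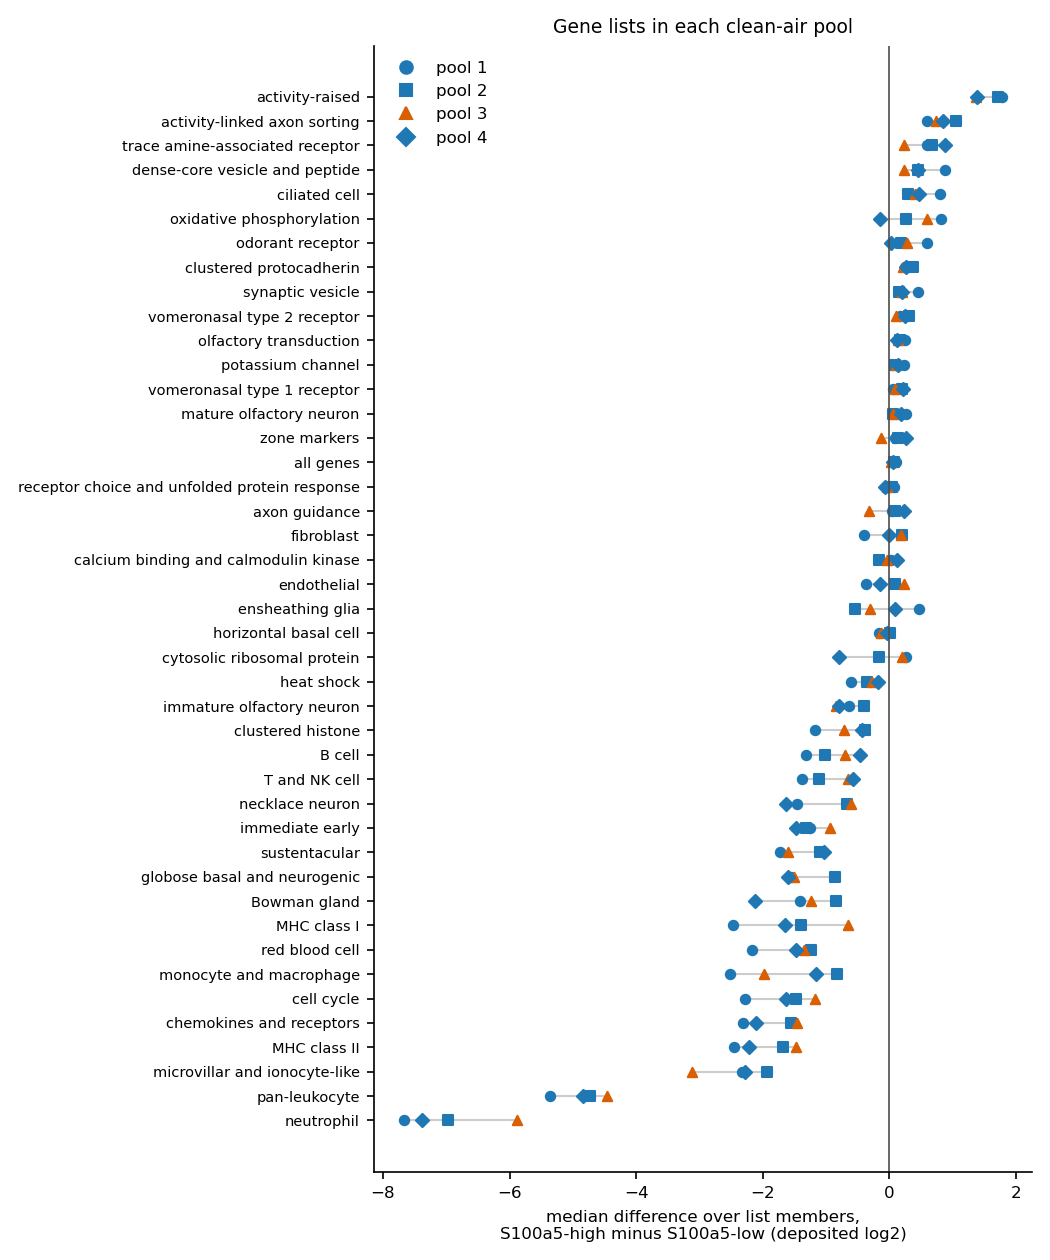
Median high minus low difference over the members of each of 42 gene lists and over all genes (horizontal axis, deposited log2 scale). Each point is 1 clean-air pool. Pool 3, turned by S100a5 and left out of the main test, is orange. The neutrophil list runs from -5.89 in pool 3 to -7.66 in pool 1, and the activity-raised list stays above 1 in each pool.

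The clean-air and odor contrasts came from the same fit and share 1 estimate of spread, so calls shared between them are not independent. The odor pools, which S100a5 did not turn, gave other samples for the same contrast by title. There, 934 genes were higher (4.79%) and 1711 lower (8.77%) in the libraries titled GFP-. Of the 2314 clean-air calls, 1850 were called there in the same direction, 79.9% of the clean-air calls and 69.9% of the 2645 odor calls, and 0 in the opposite direction. Of the 609 called receptors, 572 were among them, and r between the clean-air and odor differences across 1095 receptors was 0.98. Fxyd2 differed by 4.02, Kirrel2 by 0.93, Egr2 by -6.48, Lcn2 by -9.79 and Olfr677 by -7.80 in the odor pools.

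A test of the difference between the clean-air and odor contrasts called 1 gene of 19505 (0.00513%; 692 at an unadjusted p under 0.05), Olfr221. In clean air it stood at 9.55, 10.32, 10.08 and 10.01 in the S100a5-high libraries and at 10.80, 11.31, 11.13 and 9.69 in the S100a5-low ones, with overlap and a difference of -0.64 ± 0.35 (SE; limma adjusted p = 0.302). In the odor pools it was higher by 4.31 (adjusted p = 7.35e-06) in the libraries titled GFP-. The call rested on few pools: it was lost without clean-air pool 1 or 2 and without odor pool 1, 2 or 3, where 0 genes were called.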

How the data were processed

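Sorted cells of olfactory mucosa were measured on 16 Affymetrix arrays. The deposited values are log2 expression values. The submitters' processing notes name Affymetrix Expression Console as the authors' tool; how probes were summarized, and on which build, is not given in the sources used here. Of 28846 probe sets, 19572 carried 1 gene symbol and 0 carried several, giving 19505 genes; 55 genes had more than 1 probe set, of which the highest on average over all arrays was kept. The 5222 negative control probe sets had a median of 5.46. The number of arrays limits the precision.

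Tests used limma 3.58.1 (R 4.3.3) on 14 arrays, titled GFP- minus titled GFP+, with pool as a block, since both libraries of a pool come from the same 3 mice. Correlations of paired residuals ran from -0.02 to 0.29. Genes were called at a Benjamini-Hochberg adjusted p under 0.05. The 4-pool contrast turned by S100a5 is a description. The clean-air and odor contrasts share 1 estimate of spread. Genes named are the 12 largest called differences in each direction outside the receptors and the 8 in each direction within them. Up to 4 called members of each list by smallest p were added (or the one with the smallest p where none was called). The 3 called genes most opposed in pool 3, receptors and unnamed loci aside, and any gene called in the interaction were named too. Further members of the lists were named after their values were seen. The comparison and lists were chosen with earlier results of these data known. Patterns for ribosomal, oxidative phosphorylation and histone genes were corrected after the files had been read, and the TGACG motif and the window of 250 bases were chosen after promoters had been looked at. Scripts were tested on simulated data. Python 3.11.15, pandas 2.3.3, numpy 2.4.6 and matplotlib 3.10.9 were used. Alternatives changed the block, the scaling, the filter, the probe set rule, the arrays fitted, and left out each pool in turn.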

Additional observations from a re-analysis of the deposited data

Results flagged for a closer look

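Values within groups of 4 were checked for a library or pool far from its nearest neighbour. Of 124 groups, 8 passed the critical value of Dixon's test, where chance gives about 1 in 20. The within-pool difference of Olfr110 was 4.20 in pool 3, that of Olfr211 was 3.91 in pool 3, and that of Olfr533 was 6.57 in pool 1. The Bowman gland list had a mean level of 5.10 in the S100a5-high library of pool 1, the mature neuron list 16.53 in that of pool 2 and the transduction list 14.99 in that of pool 3. The ensheathing glia list stood at 5.56 in the S100a5-low library of pool 2 and the endothelial list at 4.20 in that of pool 1. Each lay apart from the other 3 values of its group.

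Olfr221 differed between the clean-air and the odor contrast by -4.96 in limma's interaction test, the 1 gene called there.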

How the results depend on the processing

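With all 16 arrays as titled, limma called 0 genes in clean air (0 higher, 0 lower, 0 receptors), 2 in odor, 0 in the interaction and 0 shared with odor; pool 3's titles run against its S100a5 levels. With arrays centred on their medians it called 8614 in clean air (7246 higher), 10496 in odor and 6482 shared; the counts of genes not overlapping over 4 pools became 6796 above and 1209 below, and the median of the receptor choice and unfolded protein response list turned from -0.02 to 0.32. Quantile normalization gave 1354 higher calls and 2160 genes above. With pool 3 by its titles, 439 genes lay above and 134 below. The interaction called 2 genes with the intensity trend and 3 with pool as a random block. The fit without the replicate block called 2180 genes (647 higher, 1533 lower, 584 receptors) and 2 in the interaction. Causes were not tested.

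Leaving out 1 pool gave 1503 to 2321 calls in clean air (364 to 728 higher, 1139 to 1596 lower, 494 to 617 receptors), 1912 to 2652 in odor, 0 to 1 in the interaction and 1383 to 1809 shared; 2240 to 2908 genes lay above and 2249 to 2466 below. Of 147 called genes that the text names by rule, 115 were called in every alternative run on them except the 16 arrays, and 32 lost the call without some clean-air pool. Low signal limits genes below the negative control median.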
